A study of Arabidopsis thaliana with 36 samples.

Results

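Seeds of the H3.3 mutant *h3.3ko* and of the wild type Columbia (Col) were compared after 48 h of stratification (S48h), the last sampling in the cold before seeds were moved to germination conditions. A gene entered the comparison when it reached 1 TPM (a transcript level divided by gene length and scaled so that every library has the same sum) in at least 3 of the 6 libraries of this time point, which 16602 of 27655 genes did. Of these, 16478 were nuclear, 61 chloroplast and 63 mitochondrial. The series followed both genotypes through mature seeds (MS), stratification for 12, 24 and 48 h (S12h, S24h, S48h) and germination conditions for 12 and 24 h (G12h, G24h), with 3 libraries in each of the 12 groups. Both groups were after-ripened *Arabidopsis thaliana* seeds imbibed in the cold, and the methods describe the 3 libraries of a group as independent biological replicates. Col carried no mutation. *h3.3ko* combined CRISPR mutations of *HTR4* and *HTR5* with a T-DNA insertion in *HTR8*, all 3 genes that code for H3.3. Its seeds were the progeny of plants heterozygous for a *pHTR5::HTR5* transgene, picked as mature seeds that lacked the mCherry seed marker linked to it. They therefore shared 1 mutant background, and their maternal tissue (the seed coat) had grown on transgenic mother plants.

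Histone H3.3 is the H3 variant that is placed in chromatin outside DNA replication, mostly over transcribed genes, whereas H3.1 is mainly placed during replication. A dry seed holds the transcripts of its maturation programme, among them storage proteins, oil body proteins and late embryogenesis abundant (LEA) proteins that protect cells during drying. During imbibition these transcripts are lost, the germination inhibitor abscisic acid (ABA) is broken down, gibberellin (GA) is made, and genes for translation and for cell wall loosening are switched on before the radicle protrudes.

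The 6 libraries held 18.5 to 19.3 M recovered reads. Replicates differed by more than sampling noise: their chi-square per gene was 2.79 to 4.85 among the Col libraries and 2.90 between *h3.3ko* replicates 1 and 2, and it was 13.7 and 13.2 for the pairs with *h3.3ko* replicate 3, which stood apart. Among 6686 genes whose mean reached 20 TPM, 38 were over 2-fold higher and 8 over 2-fold lower in replicate 3 than in the other replicates. Heat shock factor genes were in the higher set. *HSFA2* (AT2G26150), an activator of heat shock genes, had 44.2, 72.7 and 335 TPM in *h3.3ko* replicates 1, 2 and 3 and 50.03, 127 and 98.02 TPM in Col. *HSFA7A* had 40.8, 59.9 and 382 TPM in *h3.3ko* and 37.6, 81.5 and 60.03 TPM in Col. Without replicate 3, 3330 genes were called higher and 3392 lower, and values that moved with this library are given beside the results they touch.

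The H3.3 genes, which check the genotype, followed the labels. *HTR8* (AT5G10980) had 325, 339.7 and 343 TPM in Col and 6.43, 7.41 and 6.48 TPM in *h3.3ko*, and *HTR4* (AT4G40030) had 423, 429.8 and 400.4 against 56.1, 60.4 and 52.02 TPM. *HTR5* (AT4G40040) was lower by less than the fold threshold, with 318, 297 and 294 TPM in Col and 167, 176 and 157 TPM in *h3.3ko* (log2 fold change -0.86, SE 0.058), and a transcript level does not show whether intact protein can be made from it. Summed over the 3 genes, the level was 1038 to 1067 TPM in Col and 216 to 243 TPM in *h3.3ko*. Transcripts of the defining seed genes were present in both groups: the storage protein genes *CRA1* and *SESA5*, *OLEO1* and *EM1* were each at 19.2 TPM or more in every library. The 4 seed coat genes *BAN*, *TT8*, *TT2* and *TT10* had 0 reads in all Col libraries, and 1 of them, *BAN*, had a read in *h3.3ko*. The libraries are of bulk seeds, so fewer cells of a type and less RNA per cell cannot be told apart.

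The first question was how far the transcriptomes of both genotypes differed after 48 h in the cold. A gene was called when its limma adjusted p was under 0.05 and its fold change on the log2(TPM + 1) scale over 2. A value in brackets after the levels of a gene is this log2 fold change, *h3.3ko* over Col. By this rule 3329 genes (20.1% of those tested) were higher and 3361 (20.2%) lower in *h3.3ko*, together 40.3%. Counts of called members in the gene lists below stand against these shares. The median log2 fold change over all tested genes was -0.04. In 41.8% of tested genes all 3 *h3.3ko* libraries lay above all 3 Col libraries, and in 44.5% below them, so a lack of overlap alone was common. Over 8-fold differences were found for 454 genes that were higher and 254 that were lower. Of the higher genes, 833 were under 1 TPM in every Col library, out of 1015 such genes tested. Of the lower genes 436 were under 1 TPM in every *h3.3ko* library, out of 555. The filter admits such a gene only if all 3 libraries of the other genotype reach 1 TPM, so the filter fixed its direction. TPM are shares of a library, and the division of calls depended on scaling: 49.8% of called genes were higher by TPM, 51.5% after scaling by median ratios, 58.6% with voom on recovered reads and 59.9% when the 9 storage protein genes did not count towards the scaling, which moved the median of all genes to 0.16.

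**Figure D1:**
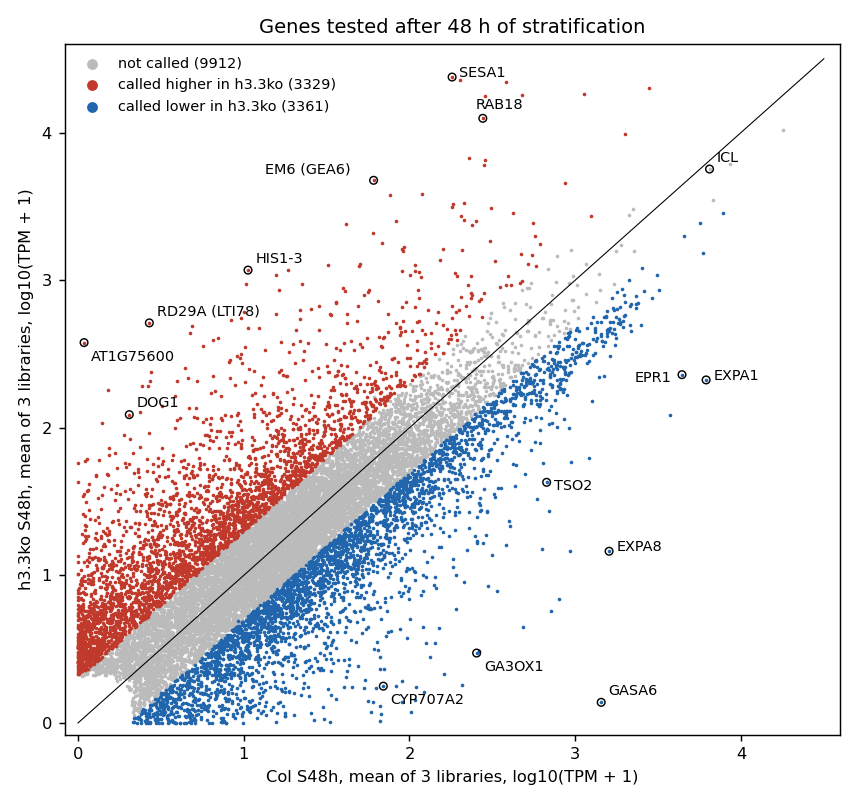
Mean level of each of the 16602 tested genes in 3 Col S48h libraries (horizontal axis) and 3 *h3.3ko* S48h libraries (vertical axis), both as log10(TPM + 1), with the line of equality. Red points are the 3329 genes called higher and blue points the 3361 called lower in *h3.3ko*, and the circled genes lie far from the line except *ICL*, which lies near it.

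The most abundant transcripts differed between the genotypes. In *h3.3ko*, 7 of the 10 highest means belonged to storage protein genes, led by *SESA1* at 23764 TPM, and the other 3 to the dehydrin gene *RAB18*, the small cysteine-rich protein gene *LCR67* and the oleosin gene *OLEO1*. In Col the highest means were those of *LCR67* at 17878 TPM and the chaperone gene *HSC70-1* at 8625 TPM, followed by the elongation factor gene AT5G60390. The isocitrate lyase gene *ICL*, the expansin genes *EXPA1* and *EXPA10* and the endosperm extensin gene *EPR1* (AT2G27380) were also among the 10 highest in Col. Levels of different genes are per base of genomic span, introns included, since that was the length by which the authors divided, so genes with long introns read low.

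Genes of seed maturation were higher in *h3.3ko* in the storage protein, oil body and LEA lists. All 9 storage protein genes, all 7 oil body protein genes and all 15 LEA genes were called higher, with median log2 fold changes of 5.31, 3.93 and 4.94 against -0.04 over all genes. Storage protein genes together took 0.509% to 0.609% of the TPM in Col libraries and 13.9% to 14.6% in *h3.3ko* libraries, LEA genes 0.187% to 0.248% and 4.11% to 4.26%, and oil body genes 0.230% to 0.346% and 1.64% to 1.72%. Each of these summed levels was 5.72-fold or more higher in *h3.3ko* (exact permutation test, two-sided p 0.1, and no smaller p is possible with 3 libraries against 3). The libraries of the genotypes also lay fully apart in 41.8% of all tested genes upward and 44.5% downward. This p therefore does not set these lists, or those tested the same way below, apart from other genes.

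*SESA1* (AT4G27140, TAIR10.1 chromosome 4, 13607329 to 13608031, 1 exon), which codes for a 2S albumin, had 181, 191 and 167 TPM in the Col libraries and 24973, 24569.5 and 21749.9 TPM in the *h3.3ko* libraries (log2 fold change 7.04, SE 0.079, limma adjusted p 3.36e-11). It was already far apart in mature seeds, at 441 and 42983 TPM in Col and *h3.3ko*, and its reads can be shared with the neighbouring copies *SESA2* to *SESA4*. *SESA5*, on another chromosome, had 231, 206 and 167 TPM in Col and 24036, 22689.6 and 21469 TPM in *h3.3ko*. Among the 12S globulins, *CRA1* had 522, 509 and 397 against 17677, 17262 and 18828 TPM, while *CRU2* had 309, 266 and 248 against 598, 551 and 526 TPM and passed the fold threshold narrowly (log2 fold change 1.03, which was 0.96 and not called without Col replicate 3 and 0.97 without *h3.3ko* replicate 1). The groups did not overlap for any of these 4 genes, and *CRU2* had the smallest difference of the storage list.

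*EM6* (AT2G40170, annotated as *GEA6*), a LEA gene of the late embryo, had 70.5, 60.7 and 48.1 TPM in Col and 5438, 4728 and 4070.4 TPM in *h3.3ko* (log2 fold change 6.29). The dehydrin gene *RAB18* (AT5G66400), which responds to ABA, had 326, 278 and 224 against 13014, 12898 and 11540.3 TPM (5.51). *M10* (AT2G41280) had the smallest difference of the list, 639, 565 and 471 against 2621, 2514 and 2145 TPM (2.12). A member that moved with replicate 3 was AT2G42560, with 178, 177 and 409 TPM in *h3.3ko* against 3.71, 4.24 and 2.25 TPM in Col, and it was called with a log2 fold change of 5.37 without that library. Among all 54 tested genes described as LEA family, 35 were higher and 5 lower, so members outside the list of 15 were divided. *M17* (AT2G41260) was among the lower ones (-3.075).

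Oleosins coat the oil bodies of the seed. *OLEO1*, the most abundant, had 2327, 2102 and 1533 TPM in Col and 9893, 10009 and 9575 TPM in *h3.3ko* (2.33), and *OLEO3* had 8.12, 8.77 and 6.81 against 202, 181 and 200.04 TPM (4.46). The aquaporins of the protein storage vacuole behaved alike in direction: *TIP3;1* had 110.1, 91.3 and 67.4 against 1533, 1507 and 1859.8 TPM (4.19) and *TIP3;2* 10.07, 9.52 and 6.16 against 548, 509.96 and 598 TPM (5.87). In contrast to these 2, *TIP1;1*, *TIP1;2*, *TIP2;1* and *TIP2;2* were too low to be tested.

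**Figure D2:**
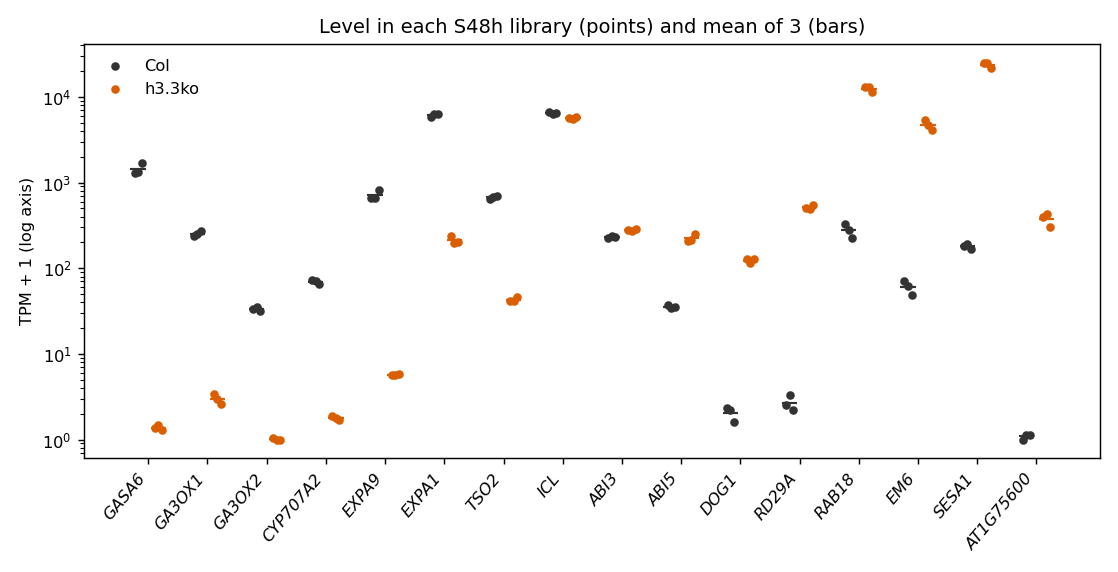
TPM + 1 on a log axis for 16 genes in each of the 3 Col (dark) and 3 *h3.3ko* (orange) S48h libraries, with a bar at each mean. The genotypes do not overlap for any gene shown, and they lie closest for *ICL* and *ABI3*, which were not called.

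The promoters of these genes are shown because seed maturation genes are known targets of B3 factors at RY elements (CATGCA) and of bZIP factors at ABA response elements (core ACGTG). In contrast, genes for ribosomal proteins often carry telo boxes (AAACCCT) and site II elements (core TGGGC). The sequences are the 250 bases before each gene start, 5′ to 3′ on the strand of the gene, from the RefSeq TAIR10.1 assembly, with matches to any of the 4 motifs on either strand in capitals. A CACGTG counts as an ACGTG on each strand. *SESA1* (chr4:13607079-13607328, plus strand) held 2 RY matches and 1 CACGTG, and *OLEO1* (chr4:12900180-12900429, plus strand) held both kinds as well as 2 site II matches. *EM6* (chr2:16780369-16780618, minus strand) held ACGTG matches and no RY match. The ribosomal protein S12/S23 family gene AT3G09680 (chr3:2970372-2970621, minus strand) was lower in *h3.3ko*, at 17.4, 16.7 and 15.9 TPM in Col and 1.96, 1.35 and 2.09 TPM in *h3.3ko* (-2.66), and held 1 telo box, 2 site II matches and 1 ACGTG. *GASA6* (chr1:28052780-28053029, plus strand), the named gene with the largest difference downward, held none of the 4 in this window. These 5 were picked as examples after their values were known.
SESA1: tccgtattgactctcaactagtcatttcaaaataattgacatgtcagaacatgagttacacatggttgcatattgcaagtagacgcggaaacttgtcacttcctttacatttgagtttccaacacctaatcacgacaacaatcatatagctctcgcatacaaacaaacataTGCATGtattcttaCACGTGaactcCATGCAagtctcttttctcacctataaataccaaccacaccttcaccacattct
OLEO1: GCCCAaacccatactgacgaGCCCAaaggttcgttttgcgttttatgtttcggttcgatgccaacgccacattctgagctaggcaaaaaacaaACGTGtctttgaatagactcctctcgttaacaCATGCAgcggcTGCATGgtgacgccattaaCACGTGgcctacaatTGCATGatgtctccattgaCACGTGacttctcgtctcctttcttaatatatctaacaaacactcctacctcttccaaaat
EM6: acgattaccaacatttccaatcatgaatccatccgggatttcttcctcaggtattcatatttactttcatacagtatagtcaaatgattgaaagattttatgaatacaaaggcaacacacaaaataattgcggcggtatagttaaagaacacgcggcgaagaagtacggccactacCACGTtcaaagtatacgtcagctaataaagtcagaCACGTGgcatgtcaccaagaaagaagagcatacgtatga
AT3G09680: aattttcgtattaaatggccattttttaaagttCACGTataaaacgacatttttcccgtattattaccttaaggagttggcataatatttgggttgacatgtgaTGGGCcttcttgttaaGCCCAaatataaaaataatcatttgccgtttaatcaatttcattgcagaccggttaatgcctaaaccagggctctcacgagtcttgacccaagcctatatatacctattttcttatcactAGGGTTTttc
GASA6: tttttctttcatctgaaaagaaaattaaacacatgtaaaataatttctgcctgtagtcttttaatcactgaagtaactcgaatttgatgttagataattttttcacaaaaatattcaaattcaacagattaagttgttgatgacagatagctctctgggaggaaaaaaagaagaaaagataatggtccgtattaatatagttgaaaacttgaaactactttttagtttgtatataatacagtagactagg

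Over windows from 250 bases before to 50 bases after the gene start, ACGTG was found in 26.7% of 27431 promoters of protein-coding genes and in 27.8% of those tested. Its share was 54.5% among 442 promoters of genes over 8-fold higher in *h3.3ko*, 37.5% among all genes called higher, 25.8% among genes not called and 24.1% among genes called lower. RY matches were in 9.72% of all promoters, 7.94% of those tested and 7.26% of those of genes not called. Their share was 18.8% among genes over 8-fold higher and 13.8% among those over 8-fold lower. It was 10.2% among all genes called higher and 7.72% among all called lower. By list, RY matches were in 8 of 9 storage protein, 7 of 7 oil body and 4 of 15 LEA promoters, whereas 14 of 15 LEA promoters held ACGTG. Telo boxes were in 10% of all promoters, 5.94% of those called higher, 15.9% of those called lower and 8.66% of those over 8-fold lower, and in 90 of 180 promoters of cytosolic ribosomal protein genes. The site II core was in 140 of these 180, against 26% of all promoters, 32.2% of those tested, 28.1% of those called higher and 33.2% of those called lower. These shares are descriptions without a test, and a match is not evidence that a factor binds.

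**Figure D3:**
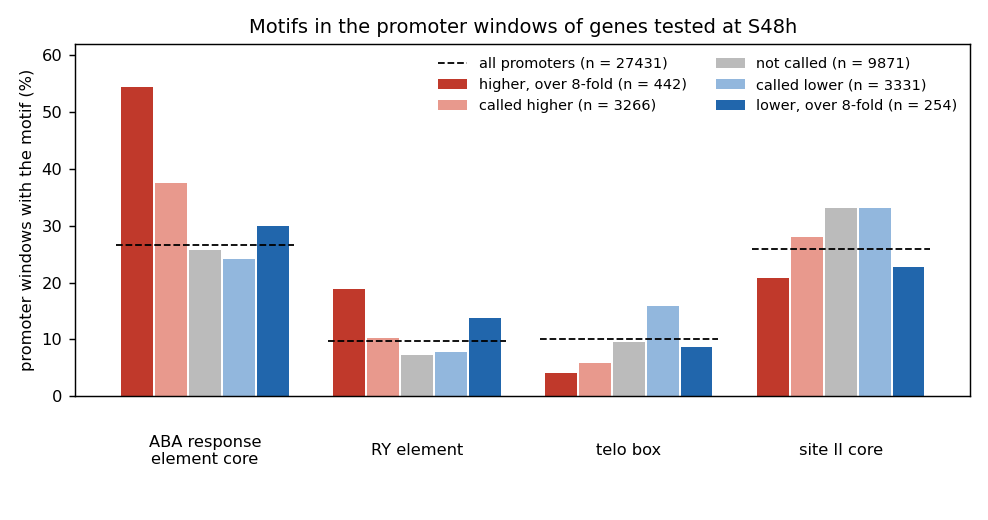
Percent of promoter windows that hold each motif on either strand, for genes over 8-fold higher, called higher, not called, called lower and over 8-fold lower in *h3.3ko* at S48h, with a dashed line at the share of all 27431 promoters. The ABA response element core is most frequent among genes over 8-fold higher (54.5%), and the telo box among genes called lower (15.9%).

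Regulators of maturation and dormancy differed less uniformly than the maturation genes themselves. *DOG1* (AT5G45830, chromosome 5, 18589418 to 18591506), a main determinant of seed dormancy, had 1.31, 1.23 and 0.584 TPM in Col and 127, 113 and 125 TPM in *h3.3ko* (5.93). Of the 10 tested regulators, 4 were higher and none lower, and the share called (40%) was near the 40.3% of all tested genes. The 4 were *DOG1*, the bZIP gene *EEL* (1.97 against 43.7 TPM in the mean, 3.91), the PEBP gene *MFT* (16.8 against 69.4 TPM, 1.99) and the B3 gene *FUS3*, which stayed under 2 TPM in every library. The B3 master regulator *ABI3* did not pass the fold threshold, with 223, 237 and 230.2 TPM in Col and 279.7, 273 and 282 TPM in *h3.3ko* (0.27, limma adjusted p 0.000486). *RDO5* and *BZIP53* were not called, with log2 fold changes of 0.13 and 0.07, and *LEC1* and *LEC2* were under 1 TPM in all libraries. With the storage genes left out of the scaling, 6 of the 10 were called higher, and so were 4063 of all 16755 genes then tested, against 3329 by TPM.

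ABA signalling genes were mostly higher, in a list made up mostly of genes for its inhibitors. Of 14 tested, 8 were called higher and 2 lower (median 1.54). Of the 8, 6 code for clade A protein phosphatases 2C, which restrain ABA signalling: *ABI2*, *HAB1*, *HAB2*, *AHG1*, *HAI1* and *HAI3*. Such phosphatases are most of the 14 listed genes, so their share of the higher genes follows in part from the list. Their relatives *PP2CA* and *HAI2* were not called. *HAI3* had 12.5, 10.8 and 8.59 TPM in Col and 104, 111 and 150.4 TPM in *h3.3ko* (3.40). *AHG1*, which binds DOG1, had 7.52, 9.73 and 8.85 against 45.1, 45.2 and 153 TPM (2.84), where the third value is that of the library that stood apart, and without it the log2 fold change was 2.26. *HAB2* fell short of the threshold without that library (0.98 against 1.09 with it), which left 7 genes higher.

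On the activating side, the bZIP gene *ABI5* had 36.2, 33.5 and 33.95 TPM in Col and 205, 215 and 249.9 TPM in *h3.3ko* (2.65), and the kinase gene *OST1* (SnRK2.6) had 3.04, 2.66 and 2.57 against 33.4, 29.1 and 32.4 TPM (3.12). The AP2 factor gene *ABI4* went the other way, with 477, 454 and 432 against 199, 195 and 172 TPM (-1.27), as did the phosphatase gene *ABI1* (-1.94), though with quantile normalization *ABI4* was not called (-0.88). The seed kinase genes *SNRK2.2* and *SNRK2.3* were not called (0.15 and -0.80). The list was thus divided, with phosphatase genes on both sides.

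ABA synthesis and breakdown were likewise divided between family members. *CYP707A2*, the ABA 8′-hydroxylase gene of imbibed seeds, had 71.4, 69.7 and 64.4 TPM in Col and 0.872, 0.774 and 0.681 TPM in *h3.3ko* (-5.29), while its relative *CYP707A1* had 0, 0.0903 and 0.226 against 14.5, 13.6 and 24.2 TPM (4.02). Among synthesis genes, *ABA1* (2.31) and *ABA2* (1.44) were higher, and *NCED3*, *NCED5* and *NCED6*, which cleave the carotenoid precursor, were lower. *NCED6*, known from the endosperm, differed most of the 3, with 32.8, 32.1 and 32.9 TPM in Col and 0.884, 1.68 and 1.18 TPM in *h3.3ko* (-3.92). The remaining members, *NCED9* and *AAO3*, were not called.

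Genes of GA synthesis were lower or not called. Of 9 tested, 5 were lower and none higher (median -1.95). *GA3OX1* (AT1G15550, chromosome 1, 5344388 to 5346342), which makes bioactive GA, had 239, 249.8 and 270.3 TPM in Col and 2.399, 1.94 and 1.59 TPM in *h3.3ko* (-6.42, SE 0.10, limma adjusted p 1.04e-10). *GA3OX2*, for the same step, had 32.3, 34.2 and 30.4 against 0.0553, 0 and 0 TPM. Before it in the pathway, *GA20OX1* (-2.15), *GA20OX2* (-1.95) and *KAO2* (-2.97) were lower, while *KAO1*, for the same step as *KAO2*, was not called (-0.86). *GA20OX3*, the most abundant of its family in *h3.3ko*, was not called, with 239, 247 and 249 TPM in Col and 194, 202 and 165 TPM in *h3.3ko* (-0.39), and the early genes *GA2* and *GA3* were not called either (0.59 and -0.67), while voom on recovered reads called *GA2* higher (1.32).

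In the perception of GA, the receptor genes *GID1A* (33.1 against 79.7 TPM, 1.24) and *GID1B* (1.28) were higher. The genes of 4 DELLA proteins, the repressors that the receptors remove, were lower: *GAI* (258 against 76.99 TPM, -1.74), *RGA* (-1.64), *RGL1* (-2.04) and *RGL3* (-2.42). *RGL2*, the main DELLA gene of germination, was not called, with 253, 248 and 249 TPM in Col and 242, 209 and 237 TPM in *h3.3ko*, ranges that lay next to each other without overlap (-0.13, limma adjusted p 0.0822), and the sign turned under 3 of the other scalings.

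*GASA6* (AT1G74670, chromosome 1, 28053030 to 28054149), which codes for a small cysteine-rich protein and responds to GA, had the largest difference downward among the named genes. It had 1283, 1318 and 1698 TPM in the Col libraries and 0.372, 0.4703 and 0.298 TPM in the *h3.3ko* libraries, where 3 to 5 reads were behind each value (log2 fold change -10.01, SE 0.10, limma adjusted p 3.36e-11). The next in size were the expansin genes *EXPA9* and *EXPA8*, the xyloglucan endotransglucosylase gene *XTH19*, the carboxypeptidase genes *scpl20* and *scpl44*, AT1G14940 of the polyketide cyclase family and *GA3OX1*. The uncharacterized AT5G44563 and AT1G53541 completed the 10, whose log2 fold changes ran from -6.42 to -10.01.

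Most alpha-expansin genes were lower, whereas other wall enzyme genes were divided. Expansins loosen walls without cutting them, and of 12 tested alpha-expansin genes 8 were lower and 3 higher (median -2.67). *EXPA1* was among the most abundant transcripts of Col, with 5824, 6276 and 6377 TPM against 235, 195 and 199 TPM in *h3.3ko* (-4.87). *EXPA8* had 1626, 1542 and 1631 against 13.9, 13.4 and 13.5 TPM (-6.78) and *EXPA2*, of the endosperm, 761, 919 and 1101 against 9.29, 12.1 and 19.6 TPM (-6.03). The exceptions were *EXPA5*, *EXPA11* and *EXPA13*, which were higher in *h3.3ko*. *EXPA11*, for example, had 0.316, 0.243 and 0.567 against 17.8, 19.6 and 15.2 TPM (3.75). Of 13 xyloglucan and mannan enzyme genes (median 0.65), 3 were higher (*XTH9*, *XTH22*, *XTH24*) and 4 lower (*XTH15*, *XTH31*, *MAN6*, *MAN7*), and voom on recovered reads called 6 higher and 4 lower.

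All 5 tested markers of the endosperm, the layer around the embryo that weakens before the radicle emerges, were lower: *EPR1*, *NCED6*, *EXPA2*, *XTH31* and *MAN7* (median -3.92). *EPR1* (AT2G27380, an extensin-like gene) had 4052, 4649 and 4512 TPM in Col and 212, 227 and 245 TPM in *h3.3ko* (-4.27), and it was apart already in mature seeds, with means of 9463 and 1665 TPM. The summed level of the marker list, most of it *EPR1*, was 4904 to 5719 TPM in Col and 241 to 293 TPM in *h3.3ko*. The sixth gene of the list, *ZOU*, was near 0 in both. The levels of some markers changed with time in Col. *EXPA2* was at 1.02 TPM at S24h and 927 TPM at S48h, and *XTH31* at 2.54 TPM at S48h and 1057 TPM at G12h. Beside the endosperm list, 3 of 6 epidermis markers were lower (*ATML1*, *PDF2*, *FDH*) and *PDF1* was higher, at 40.3 against 165 TPM. All of these endosperm markers except *EPR1* also belong to the ABA, expansin or wall enzyme lists above, and the part of endosperm tissue in those results was not tested.

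Genes of reserve breakdown were mostly not called. None of 11 genes of fatty acid beta-oxidation was called (log2 fold changes between -0.67 and 0.25), and of 8 genes of the glyoxylate cycle and gluconeogenesis *FBP* alone was lower (-1.13), a call that was lost with voom, with quantile normalization and with the storage genes left out. *ICL*, the isocitrate lyase gene, had 6608, 6226 and 6539.8 TPM in Col and 5665, 5512 and 5798 TPM in *h3.3ko* (-0.19, SE 0.070). *MLS*, the malate synthase gene, had 1872, 1859.6 and 1900.4 against 1715, 1623 and 1865 TPM (-0.12). The libraries overlapped for *MLS* and not for *ICL*. Both differences were under the fold threshold, and that of *ICL* depended on scaling, since it was 0.02 with the storage genes left out, 0.01 with voom and -1.48, a call, with quantile normalization.

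Genes of protein synthesis were lower as a group. Of 180 tested cytosolic ribosomal protein genes, 159 were lower and 1 higher (median -1.65), and all 194 listed genes together took 13.5% to 13.7% of the TPM in Col libraries and 4.16% to 4.21% in *h3.3ko* libraries (3.25-fold, exact permutation test, p 0.1). The count lower was 133 to 155 under the other scalings. AT3G56340, for a ribosomal protein S26e, had 832, 873 and 861 TPM in Col and 103, 117 and 119 TPM in *h3.3ko* (-2.91). AT4G25890, of the acidic P family, had the largest difference, 139.6, 142 and 138 against 8.09, 7.11 and 7.51 TPM (-4.04). The 1 higher gene, AT5G63070, was at 0 or near 0 in Col and under 5 TPM in *h3.3ko*.

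Genes of protein turnover, folding and organelle RNA processing were lower in smaller shares. Of 29 tested proteasome genes, 18 were lower and 1 higher (median -1.11), with *PAD1*, an alpha subunit gene of the 20S core, at 549, 531 and 529 TPM in Col and 146, 155 and 159.8 TPM in *h3.3ko* (-1.80). The lower count was 10 with quantile normalization, with voom and with the storage genes left out, and the median stayed below 0 in each. The 1 higher gene was *RPN12b*, which was at or under 2.58 TPM in every library. Chaperonin genes had 6 of 13 lower, and 8 without *h3.3ko* replicate 3, but 3 with quantile normalization and with voom, which also called 1 higher, and 2 with the storage genes left out. Pentatricopeptide repeat proteins process RNA in organelles, and 126 of their 234 tested genes were lower and 1 higher (median -1.05).

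The 2 organelle genomes differed in direction. Of 63 mitochondrial genes, 61 were higher in *h3.3ko* and none lower (median 2.15), and the summed level of all 122 listed was 241 to 271 TPM in Col and 2809 to 3165 TPM in *h3.3ko*. Of 61 chloroplast genes, 24 were lower and 1 higher (median -0.64), at 2694 to 2984 TPM in Col and 1754 to 1988 TPM in *h3.3ko*. Both exact permutation tests gave 0.1, the smallest possible. Voom could not be run for genes of either organelle genome, since reads were recovered for nuclear genes alone. With quantile normalization 57 mitochondrial genes were higher. The methods do not state how RNA was selected before the libraries were made, and its part in these levels was not tested. Among 48 nuclear photosynthesis genes, 22 were lower and 7 higher. *RBCS2B*, for the small subunit of Rubisco, had 67.7, 65.1 and 64.1 TPM in Col and 0.358, 0.181 and 0.382 TPM in *h3.3ko* (-5.67), while the light-harvesting gene *CAB3* had 1.07, 0.1997 and 0.798 against 35.96, 34.9 and 34.7 TPM (4.46), and both have near-identical copies. With the storage genes left out 18 were lower and 11 higher.

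**Figure D4:**
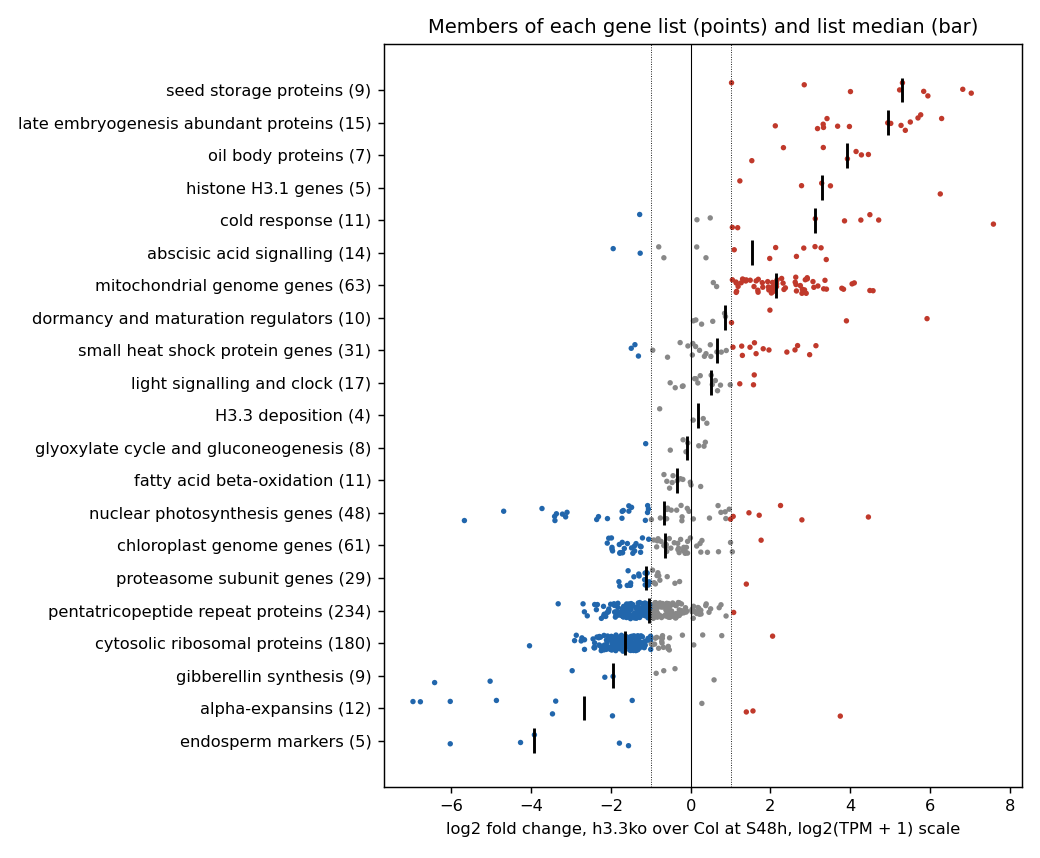
Log2 fold change of *h3.3ko* over Col at S48h, on the log2(TPM + 1) scale, for each tested member of 21 gene lists (number tested in brackets). Red points were called higher, blue points lower and grey points not called, black bars are list medians and dotted lines mark the fold threshold. Storage, LEA and oil body genes lie wholly to the right, ribosomal protein genes mostly to the left, and beta-oxidation genes around 0.

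Histone genes other than those of H3.3 were mostly higher. All 5 H3.1 genes were called, and their summed level was 68.9 to 79.7 TPM in Col and 580 to 699.9 TPM in *h3.3ko*. *HTR2* (AT1G09200) differed most of them, with 2.02, 1.12 and 2.08 against 211, 233 and 178 TPM (6.26), and *HTR1* least (1.23). Reads of these near-identical genes can be assigned to the wrong copy, so single values are uncertain. Among 30 tested genes described as histones, 23 were higher and 3 lower, and 2 of the lower were *HTR4* and *HTR8*.

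AT1G75600 (chromosome 1, 28390665 to 28391585), annotated as a histone superfamily gene, had the largest difference upward among the named genes, with 0, 0.133 and 0.132 TPM in Col and 399, 429 and 302 TPM in *h3.3ko* (8.42, SE 0.13, limma adjusted p 8.74e-11). AT1G13370, with the same description, had 0 reads in all Col libraries and 41.9, 48.02 and 35.04 TPM in *h3.3ko*. *HIS1-3*, a linker histone gene that responds to drought, had 11.3, 8.59 and 8.91 against 1236, 1176 and 1095 TPM (6.79). DNA replication genes showed no such pattern. Of 16 replication and cell cycle genes, 2 were higher and 4 lower (37.5% called, against 40.3% of all tested genes), and no *MCM* gene was called. *TSO2*, for a ribonucleotide reductase subunit, differed most of the lower genes, with 650.1, 677 and 686 against 39.98, 40.2 and 44.9 TPM (-3.98).

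Few chromatin regulator genes were called. None of the H3.3 deposition genes *HIRA*, *ATRX*, *ASF1A* and *ASF1B* was called, with log2 fold changes of 0.06, -0.78, 0.41 and 0.32. Of 8 listed genes that repress the maturation programme in seedlings, 7 are Polycomb or VAL genes, and none of these was called. Their log2 fold changes were negative, down to -0.98 (*FIE*). The other gene, the chromatin remodeller gene *PKL*, was called lower, at the threshold (-1.04). The call of *PKL* was lost with voom, with the storage genes left out and without Col replicate 3 or *h3.3ko* replicate 1. Of 5 DNA methylation genes, the demethylase gene *ROS1* was higher (0.763 against 3.0995 TPM, 1.22, not called with quantile normalization), and *MET1* had 2.37 against 0.843 TPM without reaching the threshold (-0.87), though it was called lower with a pseudocount of 0.1 (-1.39), with quantile normalization (-1.18) and with voom (-1.29).

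Cold response genes were mostly higher although both groups had been in the cold for the same time. Of 11 tested, 8 were higher and 1 lower (median 3.13), and 7 were higher without *h3.3ko* replicate 3. *RD29A* (AT5G52310, annotated as *LTI78*), which responds to cold, drought and ABA, had 1.54, 2.34 and 1.21 TPM in Col and 503, 486 and 548 TPM in *h3.3ko* (7.59). *COR413-PM1* had 2.92, 3.64 and 1.91 against 101, 85.4 and 108 TPM (4.72) and the zinc finger gene *ZAT10* 15.6, 17.9 and 12.6 against 262, 269 and 183 TPM (3.86). The dehydrin gene *COR47* was lower, with 21.96, 27.5 and 34.1 against 10.99, 9.702 and 11.5 TPM. The cold activators *CBF1* and *CBF3* were under 1 TPM in all libraries, and *CBF2* passed 1 TPM in 2 *h3.3ko* libraries.

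Among 31 tested genes picked as small heat shock protein genes by their description, 13 were higher and 3 lower (median 0.66). The description also took in genes outside the family, such as *TTA1* (1.28) and the co-chaperone gene AT4G02450 (-1.31). The summed level of the genes picked this way was 2024 to 2608 TPM in Col and 5336 to 6548 TPM in *h3.3ko*, the last in replicate 3. Without that library 13 were higher and 4 lower. *HSP17.4* did not move with it, at 353, 315 and 243 TPM in Col and 1854, 1817 and 1870.2 TPM in *h3.3ko* (2.62), whereas AT1G07400 had 35.98, 74.004 and 42.1 against 205, 262 and 580.5 TPM. In the light and clock list 3 of 17 were higher and none lower, and the clock genes *CCA1* (0.10) and *TOC1* (0.18) were not called. The higher 3 were *HY5*, *RVE8* and *LUX*, and none of them passed 14 TPM.

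The other genes with the largest differences upward, after AT1G75600 and *RD29A*, had log2 fold changes from 6.46 to 7.04. Besides *SESA1*, *SESA5* and *HIS1-3*, they were the arabinogalactan protein gene *AGP2* (3.71 against 436 TPM), the oxidoreductase gene AT5G01670 (9.298 against 936 TPM), the GRAM domain gene AT5G13200 (1.74 against 239 TPM), AT2G32210 (3.89 against 488 TPM) and AT1G19020 (0.517 against 179 TPM). For the last 2 the lowest *h3.3ko* value was that of replicate 3, with 212, 211 and 114 TPM for AT1G19020.

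Families outside these programmes were divided between members. Of 9 beta-tubulin genes, which build microtubules, *TUB2*, *TUB3* and *TUB5* were lower and *TUB4*, *TUB6* and *TUB7* higher. *TUB5* had 17.1, 18.5 and 22.6 TPM in Col and 1.84, 1.29 and 2.07 TPM in *h3.3ko* (-2.90), and *TUB6* had 2.87, 3.23 and 3.54 against 14.9, 14.2 and 15.8 TPM (1.92). Among 22 tested genes described as lipid transfer or 2S albumin family, 11 were higher, with AT1G62500 differing most (5.03), and 4 lower, with AT4G15160 differing most (-4.57). Of the GA inactivation genes 1 passed the filter on low values, and it was not called.

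Some genes were seen in 1 genotype alone. They passed the filter only because all 3 libraries of the other genotype reached 1 TPM, so the filter fixed their direction. In *h3.3ko*, 22 tested genes had 0 reads in all 3 libraries, led by the cytochrome P450 gene *CYP716A1*, which had 8.34, 8.07 and 10.14 TPM in Col and was at least 199-fold lower in *h3.3ko* by a floor of 3 reads over the group. AT5G20670, AT1G68238, AT2G42660 and the auxin response gene *IAA33* followed. In Col, 49 tested genes had 0 reads, led by the dirigent-like gene AT3G55230, with 53.2, 59.3 and 58.6 TPM in *h3.3ko*, and followed by the histone superfamily gene AT1G13370 described above, AT1G13480 and AT3G52130. The phosphatase gene *HAI1*, of the ABA list above, was the fifth of them, at 6.86, 6.56 and 14.1 TPM in *h3.3ko*. Such limits cover counting error alone.

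The called genes differed in build from the others. The median genomic span was 2054.5 bp for genes called higher, 2284 bp for genes called lower and 2632 bp for genes not called, and 19.7%, 17.4% and 9.14% had a single exon. Over all tested nuclear genes these values were 2437 bp and 12.9%. The median Col level was 3.71 TPM for genes called higher and 30.3 TPM for genes called lower, which the direction of the calls sets in part. The chromosomes held like shares of the classes, with 26.6% of the higher and 25.98% of the lower genes on chromosome 1 against 26.3% of all tested.

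To place S48h in the series, the difference between genotypes at S48h was compared with that at S24h before it and G12h after it, each by an interaction term in a fit of 12 libraries. Both terms use the S48h libraries, so they are not independent. Between S24h and S48h the difference changed for 2709 of 17086 genes (15.9%), upward for 1425 (8.34%) and downward for 1284 (7.51%). Maturation genes moved upward: 7 of 9 storage, 7 of 7 oil body and 14 of 15 LEA genes, with medians of 2.04, 2.63 and 2.72 against 0.05 over all genes. *OLEO1* was at 11752 TPM in Col and 12659 TPM in the mutant at S24h, and at 1988 and 9825 TPM at S48h, so the change lay mainly in Col. Of 12 alpha-expansin genes 6 moved downward and 2 upward, and *GASA6* went from 5.37 to 1433 TPM in Col while it was 0.530 and 0.380 TPM in *h3.3ko*. Few ribosomal protein genes moved, with 3 upward and 1 downward of 180.

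Between S48h and G12h the difference changed for 5026 of 17762 genes (28.3%), upward for 1690 (9.51%) and downward for 3336 (18.8%). The share upward among these was 33.6% by TPM, 43.7% after scaling by median ratios and 46.99% with quantile normalization, and the median over all genes was -0.13, 0.00 and 0.08. Ribosomal protein genes moved upward in 67 of 180 cases and downward in 1, and proteasome genes in 10 of 29 and 0. AT3G56340 illustrates this: from S48h to G12h it went from 855 to 1074 TPM in Col and from 113 to 497 TPM in *h3.3ko*. Among maturation genes, storage genes moved upward in 9 of 9 cases and oil body genes in 5 of 7, with 1 downward, while LEA genes had 6 of 15 upward and 3 downward (median -0.22). *DOG1* fell in *h3.3ko* from 122 to 5.15 TPM. Beta-tubulin genes moved downward in 6 of 9 cases and upward in none.

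**Figure D5:**
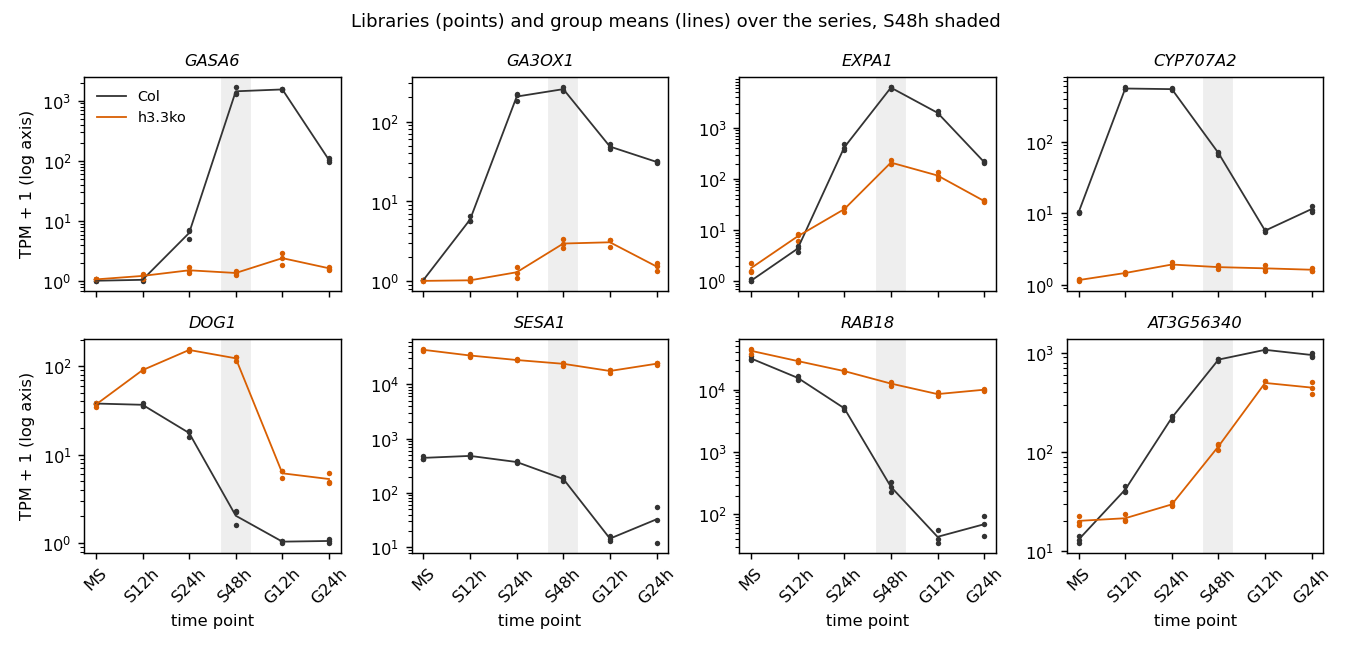
TPM + 1 on a log axis for 8 genes in each library (points) and as group means (lines) from mature seeds to 24 h of germination conditions, for Col (dark) and *h3.3ko* (orange), with S48h shaded. *GASA6* and *EXPA1* were near their highest Col levels at S48h, and AT3G56340 was between its S24h and G12h levels in *h3.3ko*. *DOG1* and *RAB18* had dropped in Col. In *h3.3ko*, *RAB18* had dropped less, while *DOG1* had risen, from 33.5 to 37.1 TPM in mature seeds to 113 to 127 TPM at S48h.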

How the data were processed

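The authors made the RNA-seq libraries with a BGISEQ-500 kit from total RNA, and the submitters' processing notes name fastp 0.20.1, HISAT2 2.1.10, HTSeq 0.11.2, DESeq2 1.26.0 and TAIR10. The deposited table gives TPM for 27655 genes in 36 libraries, with no read counts. TPM were found to be counts divided by genomic span, introns included: 99.94% of 27445 nuclear genes gave whole reads in all libraries (tolerance 0.05 reads), so depth was recovered. Strand use and the treatment of reads that map to several genes are not given in the sources used here.

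Genes with at least 1 TPM in 3 of the 6 S48h libraries were tested on log2(TPM + 1) with limma 3.58.1 (R 4.3.3, trend, Benjamini-Hochberg adjustment over all tested genes). A call needed an adjusted p under 0.05 and a log2 fold change over 1, as in the study's thresholds. This scale understates the change of low genes. Fold changes are *h3.3ko* over Col. Interactions with S24h and G12h were fitted on 12 libraries each. Summed levels were compared by exact permutation (scipy 1.17.1). In data simulated from the mean Col reads at S48h, 14 of 50 genes changed 2-fold, 49 of 50 changed 3-fold and all 50 each changed 4-fold and 8-fold were called, with 3 false calls among 15444 genes. The changed genes all had many reads, and every gene had the same relative spread. Far fewer genes changed than were called here, and neither *h3.3ko* replicate 3 nor the storage transcripts were modelled. These values are therefore not error rates of this comparison.

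Members, gene lists and motifs were chosen with earlier results of these data known. Named genes are members of the lists, those of largest difference first; per direction, the 10 called genes of largest fold change whose libraries did not overlap and whose higher group averaged 20 TPM or more; the 5 of largest interaction; and the 5 highest of those without reads in a genotype. Names come from the RefSeq table for TAIR10.1. Of 251 listed loci, 14 had no matching symbol and were kept by locus. The pattern for cytosolic ribosomal protein genes was widened after it had met few descriptions. Alternatives were another pseudocount (0.1), a mean of at least 5 TPM, no filter, 3 other scalings, voom on recovered reads, a fit of 36 libraries, a replicate block and leaving out each library.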

Additional observations from a re-analysis of the deposited data

Results flagged for a closer look

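The difference between genotypes at S48h was not the same as at S24h for 2709 genes by the interaction term (limma adjusted p under 0.05 and over 2-fold). The 5 largest changes downward, on the log2 scale, were those of *GASA6* (-7.96), *EXPA2* (-6.58), the carnitine transporter gene *OCT1* (-5.81), *COR47* (-5.53) and *scpl44* (-5.25). *COR47* changed sides: it was at 0.172 TPM in Col and 21.7 TPM in the mutant at S24h, and at 27.9 and 10.7 TPM at S48h. The 5 largest upward were *ABO3* (5.25), *CYP76C2* (4.43), *ARD3* (4.39), *AtMT4a* (4.19) and AT5G59530 (4.17). *ARD3* had 24.6 TPM in Col and 0 TPM in the mutant at S24h, and under 1 TPM in both groups at S48h, so the difference was gone once the Col level had dropped.

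The difference at G12h was not the same as at S48h for 5026 genes. The largest changes downward were those of *GASA4* (-7.11), AT1G29080 (-6.27), AT4G01700 (-6.08), AT3G48460 (-5.78) and *XTH31* (-5.60). *XTH31* was at 2.54 TPM in Col at S48h and 1057 TPM at G12h. The largest upward were *GASA3* (6.34), *GSTF3* (5.96), AT5G55050 (5.73), *ATL15* (5.36) and *OLEO1* (5.29). *GASA3* was at 159 TPM in Col at S48h and 4.07 TPM at G12h.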

How the results depend on the processing

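The numbers of genes called at S48h stayed within 1.5 times under every alternative run, from 2286 higher and 2711 lower with a mean of at least 5 TPM to 4422 higher with voom and 3764 lower with a pseudocount of 0.1. With a mean of at least 5 TPM, 715 genes changed downward between S24h and S48h (1284 without it) and 2202 between S48h and G12h (3336 without it), and the share upward of the first was 63.4% against 52.6%. The summed level of ribosomal protein genes, -1.70 on the log2 scale, was -1.66 with median-of-ratios scaling. The median log2 fold change of this list moved further under other scalings. It was -1.65 by TPM, -1.25 with quantile normalization, -1.44 with the storage genes left out and -1.47 with voom.

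Leaving out each library gave 3319 to 3356 genes higher and 3289 to 3392 lower at S48h, 1401 to 1439 up and 1223 to 1342 down between S24h and S48h, and 1628 to 1755 up and 3306 to 3396 down between S48h and G12h. The summed levels then ranged, on the log2 scale, from -1.71 to -1.70 (ribosomal), 4.08 to 4.27 (LEA), 3.50 to 3.60 (mitochondrial), 2.36 to 2.64 (oil body) and -1.11 to -1.06 (proteasome).

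Of 1446 alternative values for 97 named genes, 1415 kept direction and side of the threshold, 12 lost a call, 10 gained one and 9 changed sign, the last all for genes not called. *RGL2* was 0.20 with quantile normalization, 0.09 with storage genes left out and 0.07 with voom, *ICL* 0.02 and *MLS* 0.10 with storage genes left out, and 0.01 and 0.08 with voom. *HIRA* without Col replicate 1 and *BZIP53* without *h3.3ko* replicate 3 turned to -0.00 and -0.01, and over the libraries left out they ranged up to 0.12 each. In 68 of 1050 alternatives the count of a list moved by over 1.5 times. The causes were not tested.

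With the replicate number as a block, 3329 genes were higher and 3361 lower. Same-numbered Col and *h3.3ko* libraries correlated at 0.102, -0.0273 and 0.119 in their deviations from the group means. Differently numbered ones ranged from -0.179 to 0.141, so the same-numbered pairs did not stand out. Whether libraries shared a batch was not tested.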
